A study of Homo sapiens with 9 samples.

Results

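Cells kept in oxaliplatin were compared directly with cells kept in sorafenib, with 3 libraries of each drug, taken by the treatment their labels name, out of the 9 libraries of the series, over all 60683 genes of the count files. The contrast used no untreated library, and the 3 untreated libraries are given beside it as levels only. The labels give human wild-type cells of the colorectal adenocarcinoma line HCT 15, and messenger RNA was sequenced. In the oxaliplatin group the drug was given at 0.5 µM for 7 days and then, after passage, in steps of 1, 2 and 4 µM between day 10 and day 30, with the cells held at 4 µM from then on. The sorafenib group was raised to resistance in a like manner, at doses and times not given in the labels, so the drugs cannot be set against each other at matched doses. The untreated group received no drug. The title of the series asks how inositol hexaphosphate acts on senescence driven by stress of the endoplasmic reticulum under chemotherapy. The titles of the oxaliplatin, sorafenib and untreated libraries all carry the same number, 769. Whether the 3 libraries of a group are separate cultures is nowhere stated. The p-values below measure the spread among these libraries alone, which may be technical, and a difference between the drugs cannot be told apart from a difference between 2 adapted populations.

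Oxaliplatin is a platinum compound that crosslinks DNA. Such lesions stall replication forks, are removed mainly by nucleotide excision repair, and activate the p53 response. Sorafenib inhibits RAF kinases together with several receptor tyrosine kinases. RAF kinases signal through MEK to ERK, which induces immediate early transcription factors, ETS family factors and its own inhibitors, the Sprouty proteins and the dual-specificity phosphatases. Sorafenib is also known to impair mitochondrial respiration in cultured cells.

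Total counts lay between 15797076 and 20936536 over the 6 libraries, and 15757 genes had enough counts to be tested. Oxaliplatin and sorafenib libraries lay on opposite sides of the first principal component, which held 46.6% of the variance. Oxaliplatin 3 lay nearest to the sorafenib libraries on it, at -19.0 against -34.4 and -37.2 for oxaliplatin 1 and 2. Sorafenib 1 lay farthest from the oxaliplatin libraries, at 42.5 against 22.9 and 25.2 for sorafenib 2 and 3. Every pair of libraries within a group differed by more than counting noise (chi-square per degree of freedom from 18.1 to 37.6), and none was merged with another. That does not show separate cultures. Mitochondrially encoded genes took 9.55 to 11.9% of counts in oxaliplatin and 10.1 to 11.1% in sorafenib libraries, and ribosomal protein genes took 4.98 to 5.43% and 5.35 to 6.88%, highest in sorafenib 1. The label was checked against 23 markers of colorectal epithelium: 18 had a median under 1 CPM (reads counted for a gene, scaled to a common library total) over the 6 libraries. Of the 23 markers, 10 had no count in any of the 6 libraries, among them CDX2 and CDH1. Where no read was counted, as many as 3 counts remain possible, which is 0.141 to 0.185 CPM by library, for counting error only. The data therefore go against the colorectal label, and the cells are called by their drug below. The summed level of that list was 1032 to 1181 CPM in oxaliplatin and 1214 to 1551 CPM in sorafenib libraries, nearly all of it from the keratins KRT8 and KRT18, ELF3 and CLDN4. CLDN4, a tight junction claudin, was uneven within a group, at 64.3, 66.9 and 0.556 CPM in oxaliplatin 1 to 3 and 188, 156 and 155 CPM in sorafenib 1 to 3. Of 22 renal markers 8 had a median under 1 CPM and the summed level was 1011 to 1056 CPM against 933 to 1181 CPM. PAX8, a transcription factor of kidney and thyroid, was present in every library, at 304, 294 and 341 CPM in oxaliplatin 1 to 3 and 417, 395 and 388 CPM in sorafenib 1 to 3. Of the renal list CDH6, SLC17A3, CDH16 and CUBN were called higher in oxaliplatin and LRP2 higher in sorafenib. Of 10 immune markers 9 had a median under 1 CPM, as did 8 of 10 markers of fibroblasts and endothelium. The summed fibroblast and endothelial level was 17.0 to 25.1 CPM in oxaliplatin against 4.19 to 5.01 CPM in sorafenib, with COL1A1 its main part in oxaliplatin, while COL1A2 had no count in any of them but sorafenib 3. The 6 liver markers summed to 144.9 to 204.7 CPM against 41.5 to 50.3 CPM, mainly the fibrinogen gene FGB. The part of these marker differences in the results below was not tested, and in such bulk libraries fewer cells of a type and less RNA per cell cannot be told apart.

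At an adjusted p under 0.05, 1573 of the 15757 genes passed, which is 9.98%, and are named called below. Levels of 867 genes were higher in oxaliplatin (5.5%) and of 706 higher in sorafenib (4.48%). Among them, 607 differed at least 2-fold (3.85%), 398 higher in oxaliplatin (2.53%) and 209 higher in sorafenib (1.33%). Scaling by library size only gave 1056 and 536, which raised the share higher in oxaliplatin from 55.1% to 66.3% of calls. After a correction for GC content and transcript length the numbers were 1198 and 1322, a share of 47.5%. Over 15617 genes, which are not independent replicates, Spearman's correlation of the log2 fold change was -0.122 with GC content and 0.232 with transcript length. Here and below a fold change is the oxaliplatin over the sorafenib level on the log2 scale with its standard error, positive where oxaliplatin was higher, and p-values are those of the quasi-likelihood test in edgeR, adjusted by Benjamini-Hochberg over all genes tested. The median over all genes was 0.009, with quartiles of -0.27 and 0.317. The 3 values of a group lay wholly above the 3 of the other for 5526 genes (35.1%). For 669 of the 867 genes higher in oxaliplatin the untreated mean was nearer to the sorafenib mean, and for 198 nearer to the oxaliplatin mean. Of the 706 genes higher in sorafenib the untreated mean was nearer to sorafenib for 505 and nearer to oxaliplatin for 201. For the 867 genes the untreated mean lay between the drug means in 444, below both in 371 and above both in 52. For the 706 genes these numbers were 355, 57 and 294. The number of calls depended on which library was left out. It was 562 without oxaliplatin 1, 695 without oxaliplatin 2, 974 without sorafenib 1, 868 without sorafenib 2 and 649 without sorafenib 3, against 1832 without oxaliplatin 3 and 2177 without oxaliplatin 3 and sorafenib 1 together. Genes given below with values were fitted again under up to 18 alternative settings. Where the call of such a gene ended under one of them, that is given beside it, with libraries joined by "or" each left out alone, except for a test against a 1.5-fold difference and a replicate block, which are counted in the closing section. Members of a list given by symbol alone passed with all 6 libraries, many of them lost the call in some settings, and the count of their list without each library is given in place of theirs wherever it moved by over 1.5 times.

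**Figure D1:**
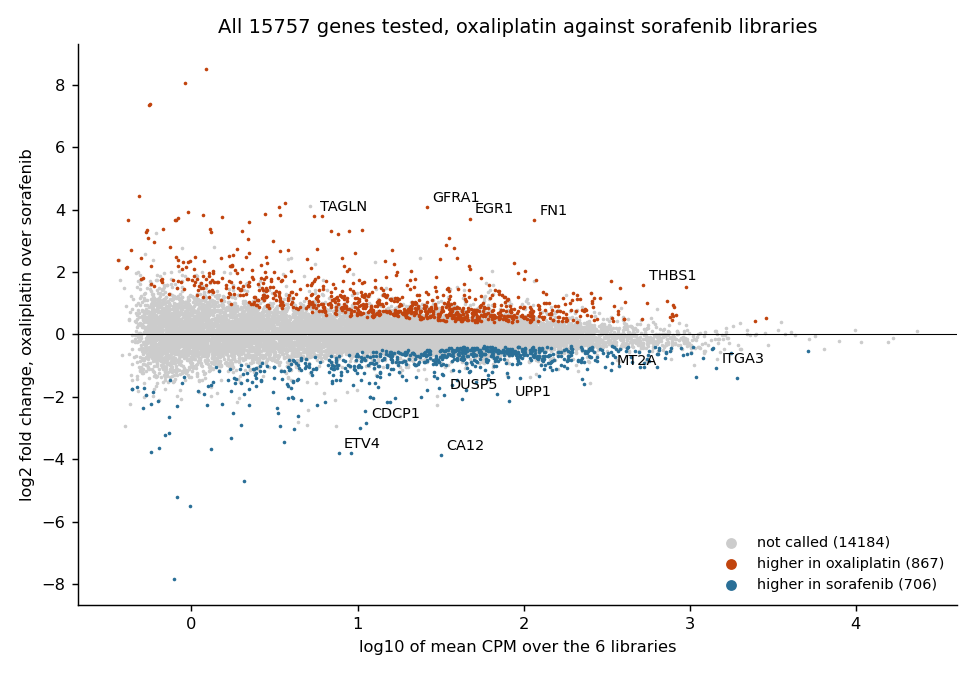
Log2 fold change of oxaliplatin over sorafenib (vertical axis) against log10 of the mean CPM of the 6 libraries (horizontal axis), 1 point for each of the 15757 genes tested. Orange points are the 867 genes higher in oxaliplatin, blue points the 706 higher in sorafenib and grey points the genes not called.

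The 12 highest fold changes toward oxaliplatin were taken among called protein-coding genes with groups that did not overlap and at least 5 CPM on average. They came from genes of several kinds, among them the matrix genes FN1 and COL1A1. In the list of matrix, integrin and mesenchymal genes read below, a member outside this choice reached 7.36. FN1, which encodes fibronectin (ENSG00000115414, chr2:215360440-215436073), stood at 217, 217 and 208 CPM in oxaliplatin 1 to 3 and 15.0, 17.96 and 18.02 CPM in sorafenib 1 to 3. Every oxaliplatin library was more than 10-fold above every sorafenib library (log2 fold change 3.65 ± 0.12, adjusted p = 2.03e-05), and the untreated libraries were at 13.1, 9.07 and 9.15 CPM, near the sorafenib level. TAGLN, the actin-binding transgelin of smooth muscle (chr11:117199370-117207464), was at 9.78, 10.3 and 10.8 CPM in oxaliplatin 1 to 3 and 1.05, 0.458 and 0.708 CPM in sorafenib 1 to 3. The sorafenib level was near or under 1 CPM (log2 fold change 3.79 ± 0.28, adjusted p = 0.000424), and the untreated libraries spread from 2.20 to 7.80 CPM. The fibrillar collagen gene COL1A1 (chr17:50184101-50201632) was at 15.6, 12.9 and 20.1 CPM in oxaliplatin 1 to 3 and 1.71, 1.95 and 1.198 CPM in sorafenib 1 to 3 (log2 fold change 3.32 ± 0.26, adjusted p = 0.000503). Untreated 2 and 3, at 43.6 and 41.1 CPM, were above every library of both drugs, and untreated 1, at 6.12 CPM, lay between the groups. CRISPLD2, the gene of a secreted protein (chr16:84819985-84920768), was at 65.1, 61.4 and 64.3 CPM in oxaliplatin 1 to 3 and 6.61, 6.87 and 8.98 CPM in sorafenib 1 to 3 (log2 fold change 3.08 ± 0.15, adjusted p = 0.000111).

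Receptor, kinase and transcription factor genes were also among the 12. GFRA1, the coreceptor that binds the neurotrophic factor GDNF (ENSG00000151892, chr10:116056925-116273467), had the highest of these, at 49.5, 47.0 and 51.0 CPM in oxaliplatin 1 to 3 and 2.81, 3.26 and 2.61 CPM in sorafenib 1 to 3. That was 17.0-fold higher in oxaliplatin (log2 fold change 4.08 ± 0.14, adjusted p = 2.03e-05), with the untreated libraries at 4.28, 8.07 and 6.51 CPM. DCLK1, a kinase bound to microtubules (chr13:35768652-36131306), was at 12.1, 11.4 and 10.9 CPM in oxaliplatin 1 to 3 and 0.936, 0.744 and 0.762 CPM in sorafenib 1 to 3 (log2 fold change 3.81 ± 0.20, adjusted p = 0.000117). SIM1, a transcription factor of the bHLH-PAS family (chr6:100385009-100464921), was at 62.9, 63.6 and 53.3 CPM in oxaliplatin 1 to 3 and 6.11, 10.3 and 8.44 CPM in sorafenib 1 to 3 (log2 fold change 2.85 ± 0.20, adjusted p = 0.00037). PPM1H, a protein phosphatase gene (chr12:62643994-62935150), stood at 68.1, 67.6 and 63.3 CPM in oxaliplatin 1 to 3 and 9.25, 10.9 and 8.93 CPM in sorafenib 1 to 3 (log2 fold change 2.78 ± 0.13, adjusted p = 7.89e-05). For SIM1 and PPM1H the untreated libraries, at 9.56, 6.83 and 7.48 CPM and 12.1, 13.4 and 14.6 CPM, lay near the sorafenib ones. ACSM2A and ACSM2B, mitochondrial acyl-CoA synthetase genes that are near-identical neighbours (chr16:20451461-20487669 and chr16:20536226-20576427), had fold changes of 3.34 ± 0.21 and 3.22 ± 0.23. Reads may be split between these copies, so the value of each is uncertain.

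By the same choice, the 12 genes farthest toward sorafenib were also of several kinds, from membrane proteins to regulators of transcription. CA12, a carbonic anhydrase of the plasma membrane (ENSG00000074410, chr15:63321378-63381846), stood at 4.28, 4.44 and 3.46 CPM in oxaliplatin 1 to 3 and 57.0, 64.7 and 57.5 CPM in sorafenib 1 to 3. The groups were more than 10-fold apart (log2 fold change -3.87 ± 0.15, adjusted p = 2.71e-05), and the untreated libraries, at 8.97, 3.42 and 3.98 CPM, lay near the oxaliplatin ones. CDCP1, a transmembrane glycoprotein phosphorylated by SRC family kinases (chr3:45082277-45146422), was at 3.24, 2.39 and 2.59 CPM in oxaliplatin 1 to 3 and 15.7, 22.9 and 20.9 CPM in sorafenib 1 to 3 (log2 fold change -2.85 ± 0.21, adjusted p = 0.000436). ADGRF1, an adhesion G protein-coupled receptor (chr6:46997708-47042350), was at 3.48, 3.38 and 3.40 CPM in oxaliplatin 1 to 3 and 16.0, 21.0 and 19.3 CPM in sorafenib 1 to 3 (log2 fold change -2.45 ± 0.17, adjusted p = 0.000339). Untreated 1 to 3 held 14.4, 3.47 and 3.12 CPM of it, so untreated 1 was near the sorafenib level and untreated 2 and 3 were near that of oxaliplatin. PLLP, a membrane proteolipid (chr16:57248547-57284672), was at 5.22, 5.66 and 5.56 CPM in oxaliplatin 1 to 3 and 24.1, 22.6 and 27.2 CPM in sorafenib 1 to 3 (log2 fold change -2.17 ± 0.14, adjusted p = 0.000309), and the actin regulator CORO2B (chr15:68578993-68727806) at 6.86, 4.83 and 5.43 CPM in oxaliplatin 1 to 3 and 27.5, 25.1 and 24.9 CPM in sorafenib 1 to 3 (log2 fold change -2.17 ± 0.17, adjusted p = 0.000527). The untreated level of CORO2B, 12.6, 12.8 and 12.9 CPM, lay between both drugs in all 3 libraries. KRT15, a keratin of basal epithelial cells, was at 2.12, 1.83 and 1.92 CPM in oxaliplatin 1 to 3 and 8.48, 10.5 and 9.25 CPM in sorafenib 1 to 3 (log2 fold change -2.26 ± 0.19, adjusted p = 0.000664), and its exons overlap MIR6510 on the same strand.

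UPP1, uridine phosphorylase of pyrimidine salvage (ENSG00000183696, chr7:48088628-48108736), was at 28.6, 29.2 and 32.7 CPM in oxaliplatin 1 to 3 and 151, 125 and 125 CPM in sorafenib 1 to 3 (log2 fold change -2.15 ± 0.13, adjusted p = 0.000174). E2F7, a repressor among the E2F factors (chr12:77021248-77065569), was at 19.0, 14.3 and 16.1 CPM in oxaliplatin 1 to 3 and 55.4, 75.2 and 75.1 CPM in sorafenib 1 to 3 (log2 fold change -2.06 ± 0.17, adjusted p = 0.000682). SLFN5, a member of the Schlafen family, was at 2.54, 2.05 and 2.35 CPM in oxaliplatin 1 to 3 and 7.54, 11.0 and 12.5 CPM in sorafenib 1 to 3 (log2 fold change -2.16 ± 0.24, adjusted p = 0.00216), and both drug groups were above the untreated mean. TMCC3, a membrane protein gene whose exons overlap MIR7844 on the same strand, was at 2.49, 2.27 and 2.10 CPM in oxaliplatin 1 to 3 and 16.2, 19.6 and 19.3 CPM in sorafenib 1 to 3 (log2 fold change -3.00 ± 0.17, adjusted p = 0.000158). SYS1-DBNDD2, a readthrough transcript that shares exons with SYS1 and DBNDD2, had a fold change of -3.79 ± 0.41 (adjusted p = 0.00261) and is uncertain for the way reads are shared. Its untreated libraries spread over 0.891, 22.6 and 4.14 CPM. Its call ended in the fit of all 9 libraries (adjusted p = 0.0637), with a range of 7.17e-21 to 0.0637 over its 17 alternatives.

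**Figure D2:**
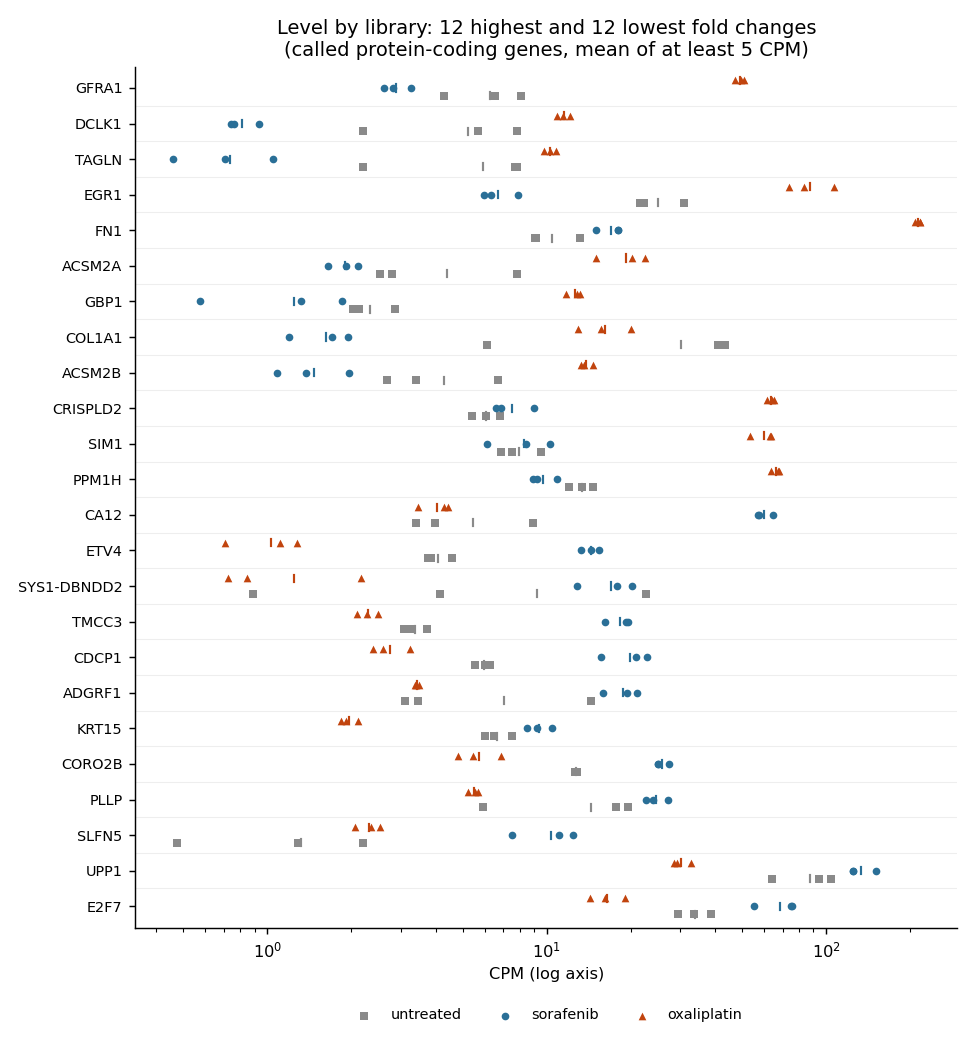
Level in CPM (log axis) of each library for the 12 highest and 12 lowest fold changes, among protein-coding genes that were called and averaged 5 CPM or more. Triangles are oxaliplatin, circles sorafenib and squares untreated libraries, and short vertical bars are group means. The drug groups do not overlap for any of these 24 genes, which the choice of genes fixes.

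Genes were then read by 30 lists of pathways and complexes, and the share of a list that was called is set beside the 9.98% of all genes. By direction, 5.5% of all genes were called higher in oxaliplatin and 4.48% higher in sorafenib. Of the protein-coding genes tested, 11.2% were called. Of the lists, ERK output (78.3%), interferon-stimulated genes (48.1%), secreted factors of senescence (47.6%), platinum and copper transport (46.2%) and matrix and integrin genes (45.7%) had the highest shares. Calls lay on 1 side for interferon-stimulated genes and on both sides for the other 4. These shares are descriptions, since no test of a list was run and the lists were chosen with earlier results of these data known.

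**Figure D3:**
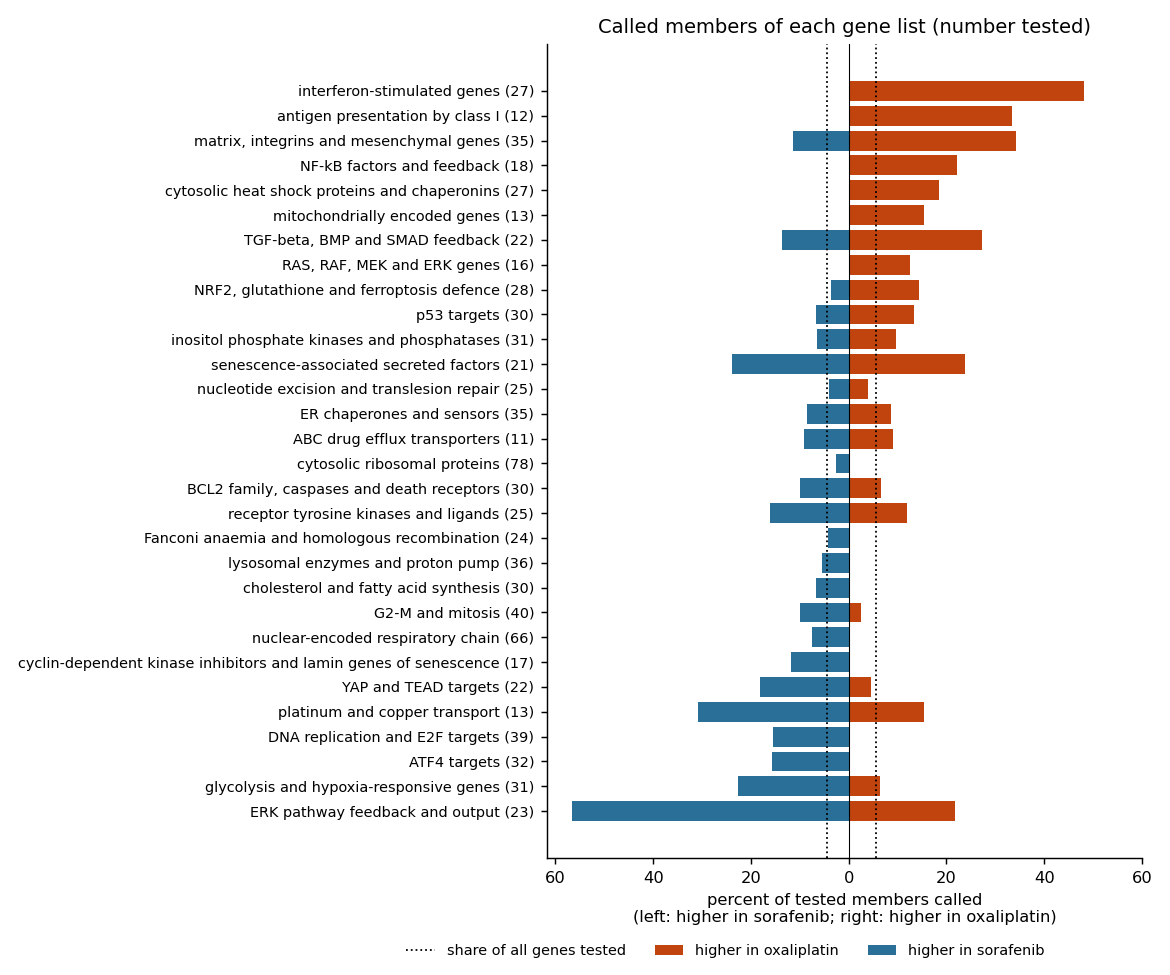
Share of tested members of each gene list called higher in oxaliplatin (orange bars to the right) and higher in sorafenib (blue bars to the left), in percent, with the number tested in brackets. Dotted lines mark the shares over all genes tested, 5.5% and 4.48%. The interferon list reaches farthest to the right, at 48.1%, with no bar to the left.

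The genes that ERK signalling drives and that feed back on it were mostly higher in sorafenib. Of 23 tested members 13 were higher in sorafenib and 5 in oxaliplatin, so that 78.3% were called against 9.98% of all genes. That share belongs to a list chosen with earlier results of these data known. The median log2 fold change was -0.81. The median was below 0 under all 18 alternatives, from -0.96 to -0.75. Without oxaliplatin 1, and again without sorafenib 3, 3 members in place of 5 were higher in oxaliplatin. With oxaliplatin 3 and sorafenib 1 left out together the counts were 5 and 14.

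Inhibitors of the pathway and its ETS factors stood on the side of sorafenib. ETV4, an ETS factor of the PEA3 group (ENSG00000175832, chr17:43527844-43579620), was at 0.705, 1.28 and 1.11 CPM in oxaliplatin 1 to 3 and 14.4, 13.3 and 15.4 CPM in sorafenib 1 to 3. The sorafenib libraries were near 14 CPM and the oxaliplatin libraries near 1 CPM (log2 fold change -3.81 ± 0.24, adjusted p = 0.000273), with the untreated ones between them at 4.57, 3.87 and 3.77 CPM. Its relative ETV5 (chr3:186046314-186110318) was at 26.5, 29.9 and 23.4 CPM in oxaliplatin 1 to 3 and 72.0, 75.8 and 84.2 CPM in sorafenib 1 to 3 (log2 fold change -1.54 ± 0.13, adjusted p = 0.000724), and its exons overlap DGKG on the same strand. DUSP5, the nuclear phosphatase of ERK (ENSG00000138166, chr10:110497907-110511533), was at 12.9, 14.5 and 14.1 CPM in oxaliplatin 1 to 3 and 53.5, 52.0 and 52.8 CPM in sorafenib 1 to 3 (log2 fold change -1.93 ± 0.11, adjusted p = 0.000174). DUSP6, the cytoplasmic ERK phosphatase (chr12:89347235-89352501), was at 8.84, 8.93 and 9.76 CPM in oxaliplatin 1 to 3 and 20.9, 25.5 and 19.2 CPM in sorafenib 1 to 3 (log2 fold change -1.25 ± 0.15, adjusted p = 0.00347). SPRY4, a Sprouty inhibitor of receptor signalling (chr5:142310427-142326455), was at 3.34, 3.50 and 3.89 CPM in oxaliplatin 1 to 3 and 9.85, 11.8 and 9.63 CPM in sorafenib 1 to 3 (log2 fold change -1.55 ± 0.17, adjusted p = 0.00236). For DUSP6 and SPRY4 the untreated libraries, at 9.21, 8.85 and 10.3 CPM and 3.68, 4.20 and 3.39 CPM, overlapped the oxaliplatin ones. The chromatin protein gene HMGA2 was at 45.0, 48.5 and 42.7 CPM in oxaliplatin 1 to 3 and 100.2, 134 and 114 CPM in sorafenib 1 to 3 (log2 fold change -1.35 ± 0.14, adjusted p = 0.00138). FOSL1, which encodes the AP-1 subunit FRA1, was at 39.8, 54.0 and 79.9 CPM in oxaliplatin 1 to 3 and 112, 106 and 119.9 CPM in sorafenib 1 to 3 (log2 fold change -0.96 ± 0.23, adjusted p = 0.0444), and oxaliplatin 3 lay nearest to sorafenib. PHLDA1 missed the threshold (adjusted p = 0.0528) and was uneven in oxaliplatin, at 208, 74.2 and 102 CPM. The call of HMGA2 ended in the fit of all 9 libraries (adjusted p = 0.0794), with a range of 1.23e-14 to 0.0794 over its 18 alternatives. That of FOSL1 ended without oxaliplatin 1 or 2 or sorafenib 1, 2 or 3 (adjusted p from 0.0873 to 0.133) and with scaling by library size only (0.0542), with a range of 0.00178 to 0.442 over its 18 alternatives. PHLDA1 was called without oxaliplatin 1 (adjusted p = 0.00244) and with a filter at a mean of 1 CPM (0.049), in DESeq2 (4.05e-05), with a dispersion that was not robust (0.0339), without overlapping genes (0.046) and after the GC and length correction (0.0319), with a range of 4.05e-05 to 0.277 over its 18 alternatives.

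EGR1 went the other way and had the highest fold change of the list. This immediate early zinc finger factor (ENSG00000120738, chr5:138465479-138469303) was at 83.2, 73.8 and 106 CPM in oxaliplatin 1 to 3 and 5.95, 7.89 and 6.32 CPM in sorafenib 1 to 3. All oxaliplatin libraries were above all sorafenib libraries (log2 fold change 3.71 ± 0.19, adjusted p = 0.000117), and the untreated ones lay between, at 31.1, 22.4 and 21.6 CPM. IL11, a cytokine of the interleukin 6 family, was at 1.97, 2.33 and 2.84 CPM in oxaliplatin 1 to 3 and 0.550, 0.686 and 0.762 CPM in sorafenib 1 to 3 (log2 fold change 1.82 ± 0.29, adjusted p = 0.00944), and the ephrin receptor EPHA4 (chr2:221418027-221574202) at 9.78, 9.43 and 5.81 CPM in oxaliplatin 1 to 3 and 2.37, 2.52 and 2.72 CPM in sorafenib 1 to 3 (log2 fold change 1.72 ± 0.24, adjusted p = 0.00607). FOS, an AP-1 subunit induced with EGR1 in many cells, was at 2.73, 2.88 and 3.03 CPM in oxaliplatin 1 to 3 and 1.21, 1.32 and 1.09 CPM in sorafenib 1 to 3 (log2 fold change 1.25 ± 0.23, adjusted p = 0.0149). Its call ended without oxaliplatin 1 or sorafenib 3 (adjusted p = 0.0539 and 0.067), with a range of 0.00654 to 0.115 over its 18 alternatives. The fifth member called higher in oxaliplatin was MYC, and the other 6 called higher in sorafenib were ETV1, SPRY1, SPRY2, SPRED3, CCND1 and EPHA2.

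EGR1 is known as a target of serum response factor, which binds CArG boxes. The 200 bases before its RefSeq start (GRCh38.p14, chr5:138465279-138465478, plus strand) are shown because they hold 2 matches to that motif, in capitals, searched on both strands. The matches begin 105 and 83 bases before the start, and they are a description of the letters, not of binding.
EGR1: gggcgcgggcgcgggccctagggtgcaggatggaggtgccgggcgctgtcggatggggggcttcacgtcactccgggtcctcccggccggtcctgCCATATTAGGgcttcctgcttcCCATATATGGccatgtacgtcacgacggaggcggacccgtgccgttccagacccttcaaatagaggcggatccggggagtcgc
Of 35116 windows of the same length before RefSeq starts, 345 (0.982%) held a CArG box and 0.0199% held 2 or more.

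Genes of the RAS, RAF, MEK and ERK proteins themselves mostly did not pass the test. Of 16 tested members 2 were higher in oxaliplatin and 0 in sorafenib, with a median of 0.06, where 5.5% and 4.48% of all genes were called. RASA1, a GTPase-activating protein that turns RAS off (chr5:87267883-87391931), was at 305, 328 and 265 CPM in oxaliplatin 1 to 3 and 125, 156 and 127 CPM in sorafenib 1 to 3 (log2 fold change 1.14 ± 0.13, adjusted p = 0.00278). The other called member was the exchange factor gene SOS1, at 58.6, 62.6 and 46.5 CPM in oxaliplatin 1 to 3 and 26.1, 34.4 and 40.3 CPM in sorafenib 1 to 3 (log2 fold change 0.73 ± 0.18, adjusted p = 0.0451). BRAF, a kinase gene at the head of the cascade, had a fold change of 0.79 ± 0.28 (adjusted p = 0.111). The call of SOS1 ended without oxaliplatin 1 or 2 or sorafenib 1, 2 or 3 (adjusted p from 0.0528 to 0.135) and with a dispersion that was not robust (0.0505) and in the fit of all 9 libraries (0.0699), with a range of 0.00831 to 0.853 over its 18 alternatives. BRAF was called in DESeq2 (adjusted p = 0.0487), with a range of 0.0487 to 0.946 over its 18 alternatives.

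Receptor tyrosine kinases and their ligands were divided. Of 25 tested, 3 were higher in oxaliplatin and 4 in sorafenib (28% called against 9.98% of all genes). The median of -0.04 turned positive under 6 alternatives, with scaling by library size only among them (0.03). AREG, a ligand of the EGF receptor (chr4:74445136-74455005), was at 142, 137 and 151 CPM in oxaliplatin 1 to 3 and 248, 225 and 225 CPM in sorafenib 1 to 3 (log2 fold change -0.70 ± 0.10, adjusted p = 0.00602). The receptor AXL was at 445, 478 and 577 CPM in oxaliplatin 1 to 3 and 791, 766 and 755 CPM in sorafenib 1 to 3 (log2 fold change -0.62 ± 0.12, adjusted p = 0.0188), and VEGFA, the ligand of endothelial VEGF receptors, at 199.7, 191 and 249 CPM in oxaliplatin 1 to 3 and 135, 132 and 122 CPM in sorafenib 1 to 3 (log2 fold change 0.72 ± 0.13, adjusted p = 0.014). The others called were GFRA1, described above, and GAS6, a ligand of AXL, on the side of oxaliplatin, and HBEGF and ERBB3 on that of sorafenib. The gene of the EGF receptor was at 0.06 ± 0.14 (adjusted p = 0.811), with overlapping groups. The call of AXL ended without oxaliplatin 1 or 2 or sorafenib 2 or 3 (adjusted p from 0.0548 to 0.0883), with a range of 0.000494 to 1 over its 18 alternatives. That of VEGFA ended without sorafenib 2 or 3 (adjusted p = 0.0513 and 0.063), with a range of 0.000216 to 0.677 over its 18 alternatives. Calls on the side of oxaliplatin numbered 1 without sorafenib 2 or 3, and the number higher in sorafenib was 1 without oxaliplatin 1 or sorafenib 3 and 2 without oxaliplatin 2 or sorafenib 2.

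Within the list of interferon-stimulated genes, every member that was called was higher in oxaliplatin. Of 27 tested members 13 were called higher in oxaliplatin and 0 in sorafenib (48.1% called against 9.98% of all genes), 25 of 27 had a positive fold change, and the median was 0.78. It lay between 0.71 and 0.86 under all 18 alternatives. The count was 7 without oxaliplatin 1 and 8 without oxaliplatin 2, and 14 with oxaliplatin 3 and sorafenib 1 left out together.

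GBP1, a guanylate-binding GTPase induced by interferon gamma (ENSG00000117228, chr1:89052319-89065230), was at 13.2, 12.8 and 11.7 CPM in oxaliplatin 1 to 3 and 1.32, 0.572 and 1.85 CPM in sorafenib 1 to 3. All oxaliplatin libraries were above all sorafenib libraries (log2 fold change 3.32 ± 0.35, adjusted p = 0.00168), and the untreated libraries held 2.02, 2.13 and 2.85 CPM. GBP2 of the same family was at 10.6, 9.15 and 7.47 CPM in oxaliplatin 1 to 3 and 3.30, 3.78 and 2.94 CPM in sorafenib 1 to 3 (log2 fold change 1.44 ± 0.20, adjusted p = 0.00588), and its exons overlap GBP7 on the same strand. IFIT3, which takes part in antiviral RNA recognition (chr10:89327997-89340971), was at 22.9, 24.0 and 19.0 CPM in oxaliplatin 1 to 3 and 10.1, 10.5 and 9.31 CPM in sorafenib 1 to 3 (log2 fold change 1.14 ± 0.15, adjusted p = 0.0042). IFIH1, the cytosolic sensor MDA5 of double-stranded RNA (chr2:162267074-162318684), was at 14.3, 15.5 and 11.1 CPM in oxaliplatin 1 to 3 and 4.07, 5.66 and 6.42 CPM in sorafenib 1 to 3 (log2 fold change 1.34 ± 0.22, adjusted p = 0.0106). ISG15, a ubiquitin-like modifier, did not pass, at 7.29, 8.38 and 9.45 CPM in oxaliplatin 1 to 3 and 6.99, 4.23 and 3.43 CPM in sorafenib 1 to 3 (adjusted p = 0.113), and sorafenib 1 was the sorafenib library nearest to oxaliplatin. The call of GBP2 ended in the fit of all 9 libraries (adjusted p = 0.0547), with a range of 1.49e-06 to 0.0547 over its 17 alternatives. ISG15 was called without sorafenib 1 (adjusted p = 0.0357) and after the GC and length correction (0.0151) and without oxaliplatin 3 and sorafenib 1 together (0.0367), with a range of 0.0151 to 0.97 over its 18 alternatives. Other called members were IFIT1, STAT2, DDX58, SAMD9L, IFI44, GBP3, PARP9 and DTX3L.

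The interferon response element searched here is GAAANNGAAA on both strands. The 200 bases before the starts of IFIT3 (GRCh38.p14, chr10:89327797-89327996, plus strand, the first of its 2 RefSeq starts) and GBP1 (chr1:89065209-89065408, minus strand) are shown, with the matches in capitals, because these genes carry the pattern of the list.
IFIT3: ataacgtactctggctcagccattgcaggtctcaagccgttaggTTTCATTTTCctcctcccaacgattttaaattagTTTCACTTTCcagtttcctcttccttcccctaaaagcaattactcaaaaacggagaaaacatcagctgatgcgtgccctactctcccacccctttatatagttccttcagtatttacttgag
GBP1: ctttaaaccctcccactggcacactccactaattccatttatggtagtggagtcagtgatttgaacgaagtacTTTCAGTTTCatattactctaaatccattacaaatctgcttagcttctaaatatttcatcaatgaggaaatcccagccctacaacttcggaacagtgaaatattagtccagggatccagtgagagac
IFIT3 had 2 matches, which begin 156 and 122 bases before the start, and GBP1 had 1, which begins at 127. A match was found in 844 of the 35116 windows (2.4%). By gene, 811 of 27305 symbols (2.97%) had one before at least 1 start. Of the tested members of the interferon list 23 matched a RefSeq entry and 13 of them had a match (56.5%). Among the members called higher in oxaliplatin it was 6 of 11 (54.5%), a share close to that of the list as a whole.

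**Figure D4:**
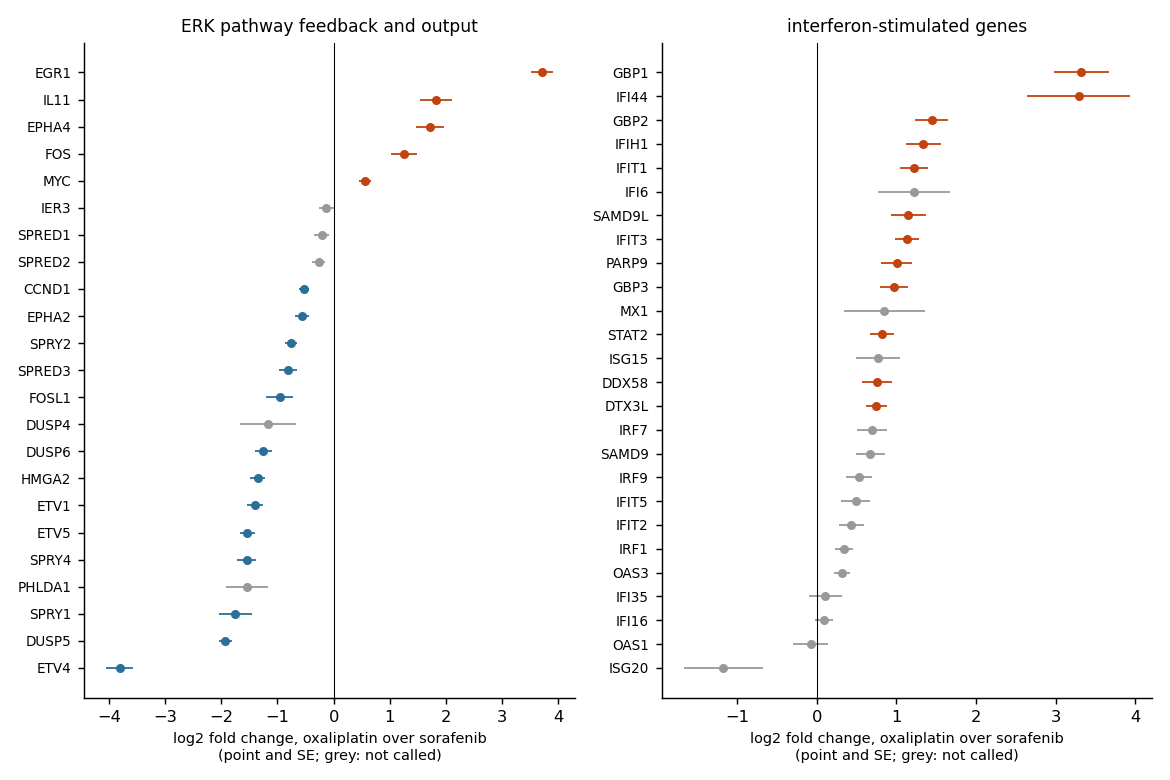
Log2 fold change of oxaliplatin over sorafenib with its standard error for each tested member of the ERK output list (left, 23 genes) and of the interferon list (right, 26 of its 27 genes). Orange points were called higher in oxaliplatin, blue ones higher in sorafenib and grey ones were not called. EGR1 and ETV4 mark the ends of the left panel, at 3.71 and -3.81.

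Of 12 tested genes of class I antigen presentation 4 were higher in oxaliplatin and 0 in sorafenib (33.3% called against 9.98% of all genes), with a median of 0.37 that stayed positive under all 18 alternatives. PSMB9, a subunit of the immunoproteasome (chr6:32844136-32859851), was at 4.28, 6.33 and 8.71 CPM in oxaliplatin 1 to 3 and 1.82, 1.37 and 1.47 CPM in sorafenib 1 to 3 (log2 fold change 2.04 ± 0.30, adjusted p = 0.00717), and its exons overlap PSMB8-AS1 on the same strand. ERAP2, which trims peptides in the endoplasmic reticulum (chr5:96875986-96919703), was at 170.3, 178 and 139 CPM in oxaliplatin 1 to 3 and 77.8, 92.7 and 89.1 CPM in sorafenib 1 to 3 (log2 fold change 0.91 ± 0.13, adjusted p = 0.00642). ERAP1 had a fold change of 0.70 ± 0.11 (adjusted p = 0.00982). B2M, the invariant light chain of class I molecules (chr15:44711487-44718877), was at 156, 159.8 and 142 CPM in oxaliplatin 1 to 3 and 106, 108 and 111 CPM in sorafenib 1 to 3 (log2 fold change 0.49 ± 0.10, adjusted p = 0.0215), and the untreated libraries, at 164, 185 and 175 CPM, were above both drug groups. The call of B2M ended without oxaliplatin 1 or 2 or sorafenib 2 or 3 (adjusted p from 0.0706 to 0.0991), with a range of 0.00187 to 1 over its 18 alternatives.

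Genes of NF-kB factors and their feedback held 4 calls higher in oxaliplatin and 0 in sorafenib among 18 tested (22.2% against 9.98% of all genes). The median of 0.58 was positive under all 18 alternatives. The number called was 0 without oxaliplatin 2, 1 without oxaliplatin 1 or sorafenib 2 or 3 and 2 without sorafenib 1. NFKB1, the precursor of the p50 subunit, was at 57.8, 62.9 and 68.1 CPM in oxaliplatin 1 to 3 and 41.7, 41.6 and 46.3 CPM in sorafenib 1 to 3 (log2 fold change 0.54 ± 0.11, adjusted p = 0.0249); the others called were the inhibitor gene NFKBIE, the adaptor gene TRAF1 and the chemokine gene CCL20. The feedback genes NFKBIA and TNFAIP3, which signalling induces quickly, did not pass, at -0.22 ± 0.13 (adjusted p = 0.324) and 0.36 ± 0.20 (adjusted p = 0.287). The call of NFKB1 ended without oxaliplatin 1 or 2 or sorafenib 1, 2 or 3 (adjusted p from 0.0612 to 0.0866), with a range of 0.00421 to 1 over its 18 alternatives.

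The list of matrix, integrin and mesenchymal genes held 12 members higher in oxaliplatin and 4 in sorafenib among 35 tested (45.7% called), with a median of 0.51 that ran from 0.39 to 0.58 under the alternatives. Members higher in sorafenib numbered 2 without oxaliplatin 1 or 2 or sorafenib 2 or 3. Besides FN1, TAGLN and COL1A1, the matricellular gene THBS1, an activator of latent TGF-beta (ENSG00000137801, chr15:39581079-39599466), was at 846, 748 and 769.7 CPM in oxaliplatin 1 to 3 and 238, 284 and 272 CPM in sorafenib 1 to 3 (log2 fold change 1.57 ± 0.11, adjusted p = 0.000403). The untreated libraries, at 356, 265 and 299 CPM, lay near the sorafenib ones. Among the integrin subunits, ITGB6 and ITGA1 were called higher in oxaliplatin and ITGA3, ITGB3 and ITGB4 higher in sorafenib. ITGA3, the alpha subunit of a laminin receptor (ENSG00000005884, chr17:50055968-50090481), was at 849.8, 906 and 1029 CPM in oxaliplatin 1 to 3 and 1979, 1987 and 1924 CPM in sorafenib 1 to 3 (log2 fold change -1.08 ± 0.11, adjusted p = 0.00138), with the untreated libraries at 982, 854 and 845 CPM. ITGB3 (chr17:47253827-47313743) was at 18.7, 15.3 and 19.0 CPM in oxaliplatin 1 to 3 and 32.9, 46.5 and 41.6 CPM in sorafenib 1 to 3 (log2 fold change -1.19 ± 0.17, adjusted p = 0.00559), and both drug groups were above the untreated level of 7.90, 6.89 and 6.41 CPM. VIM, the intermediate filament gene of mesenchymal cells, did not differ beyond its spread (-0.03 ± 0.13, adjusted p = 0.908). The exons of ITGB3 overlap AC068234.1 on the same strand.

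The median of targets and members of TGF-beta and BMP signalling was 0.13, and 40.9% were called against 9.98% of all genes. Calls lay in both directions, 6 higher in oxaliplatin and 3 in sorafenib of 22 tested. Leaving out a library changed the first number to 2 without oxaliplatin 1 or 2 and 3 without sorafenib 2 or 3, and the second to 6 without oxaliplatin 3. TGFBI, a matrix protein induced by TGF-beta (ENSG00000120708, chr5:136028988-136063818), was at 1379, 1700.0 and 1153 CPM in oxaliplatin 1 to 3 and 486, 465 and 535 CPM in sorafenib 1 to 3 (log2 fold change 1.51 ± 0.15, adjusted p = 0.00153). PMEPA1, an inhibitor of SMAD signalling that TGF-beta induces (chr20:57648392-57711536), was at 252, 281 and 319 CPM in oxaliplatin 1 to 3 and 119, 120.1 and 101 CPM in sorafenib 1 to 3 (log2 fold change 1.32 ± 0.13, adjusted p = 0.00127). Untreated 2 and 3 held more PMEPA1 than either drug group, at 408 and 362 CPM, and untreated 1 held 149.7 CPM. BMP6, a BMP ligand (ENSG00000153162, chr6:7726099-7881728), was at 0.846, 1.39 and 0.988 CPM in oxaliplatin 1 to 3 and 5.50, 5.09 and 5.77 CPM in sorafenib 1 to 3 (log2 fold change -2.34 ± 0.25, adjusted p = 0.00177), so it was higher in sorafenib, and the untreated libraries were at 1.13, 0.784 and 0.592 CPM. ID2, an inhibitor of bHLH factors that BMP signalling induces (chr2:8678845-8684461), was at 8.18, 7.93 and 8.71 CPM in oxaliplatin 1 to 3 and 19.8, 18.5 and 18.3 CPM in sorafenib 1 to 3 (log2 fold change -1.19 ± 0.13, adjusted p = 0.00221). The feedback inhibitor SMAD7 was at -0.05 ± 0.16 (adjusted p = 0.875). The call of ID2 ended in the fit of all 9 libraries (adjusted p = 0.0864), with a range of 6.52e-10 to 0.0864 over its 18 alternatives. ID4 was the third call on that side, and BMP2, ATOH8 and the receptor gene TGFBR2 were among the others higher in oxaliplatin.

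Of 22 tested targets of YAP and TEAD, the effectors of the Hippo pathway, 1 was higher in oxaliplatin and 4 in sorafenib. The share called was 22.7% against 9.98% of all genes, and the median was -0.11. The number higher in sorafenib was 2 without oxaliplatin 1 or 2 or sorafenib 3, and 7 with oxaliplatin 3 and sorafenib 1 left out together. NT5E, the ectonucleotidase CD73 (ENSG00000135318, chr6:85449584-85495791), was at 33.5, 39.0 and 37.9 CPM in oxaliplatin 1 to 3 and 79.8, 80.1 and 83.2 CPM in sorafenib 1 to 3 (log2 fold change -1.14 ± 0.11, adjusted p = 0.00119). CCN2, connective tissue growth factor (chr6:131948176-131951372), was at 3.53, 4.49 and 5.81 CPM in oxaliplatin 1 to 3 and 11.8, 10.0 and 12.2 CPM in sorafenib 1 to 3 (log2 fold change -1.30 ± 0.21, adjusted p = 0.0106). ANKRD1, a further target of this pathway, was at 1.93, 2.16 and 1.73 CPM in oxaliplatin 1 to 3 and 4.35, 2.46 and 2.23 CPM in sorafenib 1 to 3 and was not called (adjusted p = 0.218). The untreated libraries held more CCN2 than the oxaliplatin ones, at 11.8, 15.2 and 18.9 CPM, and less NT5E than either drug group, at 22.0, 23.3 and 27.8 CPM. The member called higher in oxaliplatin was ARHGEF17, an exchange factor for small GTPases (0.88 ± 0.13, adjusted p = 0.00773), and AXL and CCN1 were the other 2 higher in sorafenib.

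Genes that carry or bind platinum and copper were called in both directions: 2 of 13 tested were higher in oxaliplatin and 4 in sorafenib (46.2% called against 9.98%), with a median of -0.21. The numbers depended on single libraries, with 0 without oxaliplatin 1 or 2 or sorafenib 3 and 1 without sorafenib 1 or 2 for oxaliplatin and 2 without oxaliplatin 1 or 2 or sorafenib 3 for sorafenib. Metallothioneins, small proteins that bind metal ions and platinum through their thiols, were lower in oxaliplatin. MT2A (ENSG00000125148, chr16:56608584-56609497) was at 190.0, 234 and 206 CPM in oxaliplatin 1 to 3 and 449, 409.7 and 526 CPM in sorafenib 1 to 3. All sorafenib libraries were above all oxaliplatin libraries (log2 fold change -1.14 ± 0.13, adjusted p = 0.00276), and the untreated libraries held 358, 796 and 710.0 CPM. MT1X (chr16:56682470-56684196) was at 5.92, 6.27 and 7.04 CPM in oxaliplatin 1 to 3 and 21.3, 18.6 and 17.1 CPM in sorafenib 1 to 3 (log2 fold change -1.57 ± 0.16, adjusted p = 0.00136), with untreated 2 and 3 at 23.6 CPM each and untreated 1 lower. Metallothionein genes are close copies of each other and the exons of MT1X overlap AC026461.1 on the same strand, so the split of reads between them is uncertain.

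Metallothionein genes are induced by the metal-sensing factor MTF1 through metal response elements. The motif searched is TGCNCNC on both strands. The 200 bases before the RefSeq starts of MT2A (GRCh38.p14, chr16:56608384-56608583, plus strand) and MT1X (chr16:56682270-56682469, plus strand) are shown, with the matches in capitals, because both genes differed between the drugs in the same direction.
MT2A: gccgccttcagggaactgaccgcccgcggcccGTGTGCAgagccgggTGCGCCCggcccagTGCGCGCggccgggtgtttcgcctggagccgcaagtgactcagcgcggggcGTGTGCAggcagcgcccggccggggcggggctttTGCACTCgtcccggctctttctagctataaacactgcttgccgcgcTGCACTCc
MT1X: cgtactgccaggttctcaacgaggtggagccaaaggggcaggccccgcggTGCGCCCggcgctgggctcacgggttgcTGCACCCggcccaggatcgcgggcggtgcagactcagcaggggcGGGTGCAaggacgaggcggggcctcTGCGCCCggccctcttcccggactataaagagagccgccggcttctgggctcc
MT2A had 6 matches, which begin 168, 153, 139, 88, 54 and 8 bases before the start. MT1X had 4, which begin at 150, 122, 78 and 53. This short motif was in 43% of the 35116 windows, while 6 or more matches were in 0.0854% and 4 or more in 0.988%.

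Copper transporters, which also move platinum compounds, differed by less. The uptake transporter gene SLC31A1, known as CTR1 (chr9:113221544-113264492), was at 78.2, 83.2 and 80.8 CPM in oxaliplatin 1 to 3 and 111, 114 and 121 CPM in sorafenib 1 to 3 (log2 fold change -0.52 ± 0.10, adjusted p = 0.0176). ATP7A, a copper-exporting ATPase (chrX:77910656-78050395), was at 18.8, 19.8 and 16.5 CPM in oxaliplatin 1 to 3 and 9.41, 12.2 and 11.0 CPM in sorafenib 1 to 3 (log2 fold change 0.75 ± 0.15, adjusted p = 0.0236), and its exons overlap PGK1 and AL356235.1 on the same strand. The related ATP7B was not called, at 12.6, 10.2 and 6.24 CPM in oxaliplatin 1 to 3 and 7.21, 4.29 and 5.28 CPM in sorafenib 1 to 3 (adjusted p = 0.126), and oxaliplatin 3 overlapped the sorafenib range. SLC22A3, an organic cation transporter that carries oxaliplatin (chr6:160348378-160452577), was at 11.2, 11.2 and 12.6 CPM in oxaliplatin 1 to 3 and 18.2, 21.6 and 20.6 CPM in sorafenib 1 to 3 (log2 fold change -0.79 ± 0.14, adjusted p = 0.0134). SLC47A2, an extrusion transporter of the kidney, was the other member called higher in oxaliplatin. The call of SLC31A1 ended without oxaliplatin 1 or 2 or sorafenib 2 or 3 (adjusted p from 0.0506 to 0.0945), with a range of 0.00043 to 1 over its 18 alternatives. That of ATP7A ended without oxaliplatin 1 or 2 or sorafenib 1 or 3 (adjusted p from 0.0552 to 0.09), with a range of 0.00191 to 0.665 over its 17 alternatives. That of SLC22A3 ended without oxaliplatin 1 or 2 or sorafenib 3 (adjusted p from 0.0546 to 0.0663), with a range of 0.000153 to 0.466 over its 18 alternatives. ATP7B was called without oxaliplatin 3 (adjusted p = 0.0444) and without oxaliplatin 3 and sorafenib 1 together (0.0236), with a range of 0.0236 to 0.978 over its 18 alternatives.

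Of 11 tested ABC transporters, the drug efflux pumps, 1 was called in each direction (18.2% called against 9.98% of all genes), ABCC5 higher in oxaliplatin and ABCA3 higher in sorafenib. The number higher in sorafenib was 0 without oxaliplatin 1, 2 or 3 or sorafenib 1, 2 or 3, and also 0 with scaling by library size only and with no filter on low counts. ABCC5, a pump for nucleotide analogues (chr3:183919934-184017939), was at 69.2, 64.7 and 68.3 CPM in oxaliplatin 1 to 3 and 34.6, 44.3 and 42.4 CPM in sorafenib 1 to 3 (log2 fold change 0.74 ± 0.12, adjusted p = 0.0115). ABCB1, the P-glycoprotein gene, was at 125, 123 and 110.1 CPM in oxaliplatin 1 to 3 and 89.7, 104 and 104 CPM in sorafenib 1 to 3 and was not called (0.27 ± 0.11, adjusted p = 0.165), although its groups do not overlap. Of 25 genes of nucleotide excision repair and translesion synthesis 1 was higher in oxaliplatin and 1 in sorafenib (8% called against 9.98% of all genes), and of 24 Fanconi anaemia and homologous recombination genes 0 and 1 (4.17%). RAD51D was the recombination gene higher in sorafenib. Both shares are under that of all genes. Of the repair list the number higher in sorafenib was 0 without oxaliplatin 1 or 2 or sorafenib 1, 2 or 3 and 2 without oxaliplatin 3, and of the recombination list it was 0 without oxaliplatin 1 or 2 or sorafenib 2 or 3. POLH, the polymerase that bypasses platinum adducts (chr6:43576185-43620523), was at 51.8, 56.6 and 52.3 CPM in oxaliplatin 1 to 3 and 35.7, 39.8 and 40.5 CPM in sorafenib 1 to 3 (log2 fold change 0.47 ± 0.11, adjusted p = 0.0345). The excision repair genes XPC, DDB2 and ERCC1 had fold changes of 0.11 ± 0.10, -0.10 ± 0.14 and -0.07 ± 0.13, with adjusted p-values of 0.519, 0.691 and 0.749 and overlapping groups. The call of ABCC5 ended without oxaliplatin 1 (adjusted p = 0.0535), with a range of 8.03e-05 to 0.58 over its 18 alternatives. That of POLH ended without oxaliplatin 1 or 2 or sorafenib 1, 2 or 3 (adjusted p from 0.0682 to 0.115), with a range of 0.012 to 1 over its 18 alternatives.

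Of 30 tested p53 targets 4 were higher in oxaliplatin and 2 in sorafenib (20% called against 9.98% of all genes). The median of 0.06 fell to -0.03 after the GC and length correction. Those higher in oxaliplatin numbered 1 without oxaliplatin 1 or 2 or sorafenib 3 and 2 without sorafenib 1 or 2, and the number higher in sorafenib 1 without oxaliplatin 1 or 2 or sorafenib 2 or 3. KITLG, stem cell factor (ENSG00000049130, chr12:88492793-88580851), was at 16.9, 18.9 and 12.3 CPM in oxaliplatin 1 to 3 and 4.57, 5.32 and 5.61 CPM in sorafenib 1 to 3 (log2 fold change 1.63 ± 0.20, adjusted p = 0.00342). GADD45A, a growth arrest gene induced by DNA damage (ENSG00000116717, chr1:67685201-67688334), was at 94.9, 91.8 and 113 CPM in oxaliplatin 1 to 3 and 231, 210.1 and 198 CPM in sorafenib 1 to 3 (log2 fold change -1.09 ± 0.12, adjusted p = 0.00221), so it was lower in oxaliplatin, while the untreated libraries held 163, 216 and 217 CPM. CDKN1A, which encodes p21, was at 239, 257 and 115 CPM in oxaliplatin 1 to 3 and 128, 119.5 and 108 CPM in sorafenib 1 to 3. Oxaliplatin 1 and 2 were above every sorafenib library and oxaliplatin 3 lay within their range, and the gene was not called (adjusted p = 0.131). It was called, as higher in oxaliplatin, without oxaliplatin 3 (adjusted p = 0.00409) and in DESeq2 (0.0436) and without oxaliplatin 3 and sorafenib 1 together (0.00472), with a range of 0.00409 to 1 over its 18 alternatives. The p53 inhibitor gene MDM2 was at -0.45 ± 0.18 (adjusted p = 0.158) and the stress cytokine gene GDF15 at -0.24 ± 0.14 (adjusted p = 0.317), both with overlapping groups. MDM2 was called, as lower in oxaliplatin, after the GC and length correction (adjusted p = 0.0105), with a range of 0.0105 to 1 over its 17 alternatives, and its exons overlap AC025423.2 on the same strand. BTG2, TP53INP1 and POLH were the other 3 members higher in oxaliplatin, and the death receptor gene TNFRSF10B the other higher in sorafenib.

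Among replication genes and E2F targets 37 of 39 fold changes were below 0, with a median of -0.24 against 0.009 over all genes. In this list 6 members were higher in sorafenib and 0 in oxaliplatin (15.4% called against 9.98% of all genes). The number of calls was 0 without oxaliplatin 1 or 2 or sorafenib 3 and 1 without sorafenib 1 or 2, so the calls of single members were not stable while the median ran from -0.27 to -0.18. CDC45, a cofactor of the replicative helicase (chr22:19479457-19520612), was at 11.3, 12.1 and 14.4 CPM in oxaliplatin 1 to 3 and 24.1, 19.7 and 22.1 CPM in sorafenib 1 to 3 (log2 fold change -0.80 ± 0.15, adjusted p = 0.0179). The others called were the helicase subunits MCM2, MCM5 and MCM7, its partner GINS2 and the clamp loader subunit RFC3. PCNA, the sliding clamp, was not called (-0.29 ± 0.10, adjusted p = 0.103). The untreated libraries held more CDC45 than either drug group, at 27.6, 34.1 and 39.8 CPM. The call of CDC45 ended without oxaliplatin 1 or 2 or sorafenib 1 or 3 (adjusted p from 0.0525 to 0.081), with a range of 0.000427 to 0.489 over its 18 alternatives.

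Of 40 tested genes of G2-M and mitosis 1 was higher in oxaliplatin and 4 in sorafenib, with a median of -0.12. The share called was 12.5%, against 9.98% of all genes and 11.2% of protein-coding genes. The number higher in sorafenib was 0 without oxaliplatin 1, 1 without sorafenib 3 and 2 without oxaliplatin 2 or sorafenib 2. UBE2C, a ubiquitin-conjugating enzyme of mitotic exit (chr20:45812576-45816957), was at 73.8, 77.9 and 61.8 CPM in oxaliplatin 1 to 3 and 135, 112 and 107 CPM in sorafenib 1 to 3 (log2 fold change -0.73 ± 0.14, adjusted p = 0.0179). MAD2L1, PLK1 and BIRC5 were the other 3, and the kinesin KIF20A was the member higher in oxaliplatin, a count that was 0 without oxaliplatin 1 or 2 or sorafenib 1, 2 or 3. The proliferation marker MKI67 was uneven within both groups, at 258, 89.4 and 207 CPM in oxaliplatin 1 to 3 and 189, 86.8 and 97.5 CPM in sorafenib 1 to 3 (adjusted p = 0.48). Of 17 lamin genes, cyclin-dependent kinase inhibitors and other marks of senescence 11.8% were called, against 9.98% of all genes and 11.2% of protein-coding genes. The 2 members called were both higher in sorafenib, a count that was 1 without oxaliplatin 1 or 2 or sorafenib 1, 2 or 3. These were the chromatin proteins HMGB2, at 97.9, 98.6 and 73.6 CPM in oxaliplatin 1 to 3 and 195, 165 and 173 CPM in sorafenib 1 to 3 (log2 fold change -0.98 ± 0.14, adjusted p = 0.00676), and HMGB1, at 148, 109 and 148 CPM in oxaliplatin 1 to 3 and 212, 299 and 197 CPM in sorafenib 1 to 3 (log2 fold change -0.80 ± 0.19, adjusted p = 0.0389), whose loss from the nucleus is known in senescent cells. CDKN2A, the p16 gene, and LMNB1, lamin B1, were not called, at -0.25 ± 0.29 and 0.01 ± 0.11 (adjusted p = 0.601 and 0.964). Without oxaliplatin 3, 1 member of this senescence list was called higher in oxaliplatin. The call of UBE2C ended without oxaliplatin 1 (adjusted p = 0.0663), with a range of 0.000344 to 0.709 over its 18 alternatives. That of HMGB1 ended without oxaliplatin 1, 2 or 3 or sorafenib 1, 2 or 3 (adjusted p from 0.0534 to 0.108) and with scaling by library size only (0.0548) and without oxaliplatin 3 and sorafenib 1 together (0.131), with a range of 0.00243 to 0.648 over its 18 alternatives.

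Secreted factors associated with senescence were called in both directions, 5 of 21 tested each way (47.6% called), and their median of -0.07 turned to 0.02 without oxaliplatin 1 and 0.03 without oxaliplatin 2. Leaving out a library changed the first of these to 1 without sorafenib 3, 2 without oxaliplatin 1 or sorafenib 2 and 3 without oxaliplatin 2 or sorafenib 1. INHBA, the activin A subunit (ENSG00000122641, chr7:41667168-41705834), was at 48.0, 52.6 and 45.5 CPM in oxaliplatin 1 to 3 and 19.5, 25.6 and 21.0 CPM in sorafenib 1 to 3 (log2 fold change 1.14 ± 0.14, adjusted p = 0.00326). PLAU, urokinase (ENSG00000122861, chr10:73909177-73917496), was at 109, 120.4 and 121 CPM in oxaliplatin 1 to 3 and 268, 229.7 and 240.4 CPM in sorafenib 1 to 3 (log2 fold change -1.08 ± 0.11, adjusted p = 0.00138), and its receptor PLAUR (chr19:43646095-43670547) at 17.8, 19.8 and 16.4 CPM in oxaliplatin 1 to 3 and 35.0, 32.4 and 31.4 CPM in sorafenib 1 to 3 (log2 fold change -0.87 ± 0.13, adjusted p = 0.00643). The ligand and the receptor were thus both higher in sorafenib. VEGFA, CCL2 and CCL20 were also higher in oxaliplatin, and AREG, IGFBP3 and TIMP1 the other 3 higher in sorafenib. The cytokine gene IL6 stood under 1 CPM in every library and was not called (adjusted p = 0.0518). It was called with scaling by library size only (adjusted p = 0.0452), without overlapping genes (0.0456) and after the GC and length correction (0.034), with a range of 0.034 to 0.264 over its 17 alternatives.

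Genes of the BCL2 family, caspases and death receptors were called in both directions, 2 higher in oxaliplatin and 3 in sorafenib of 30 tested. The share called was 16.7% against 9.98% of all genes. The number higher in sorafenib was 0 without oxaliplatin 1 or 2 or sorafenib 2 or 3 and 1 without sorafenib 1. BCL2, the founding inhibitor of mitochondrial apoptosis (ENSG00000171791, chr18:63123346-63320128), was at 59.8, 57.8 and 60.1 CPM in oxaliplatin 1 to 3 and 21.8, 20.1 and 23.1 CPM in sorafenib 1 to 3. The groups were more than 2-fold apart with little spread (log2 fold change 1.45 ± 0.11, adjusted p = 0.000445), and the untreated libraries, at 28.8, 23.4 and 19.5 CPM, lay with the sorafenib ones. BMF, which opposes BCL2 (chr15:40087890-40108892), was at 42.7, 38.4 and 41.9 CPM in oxaliplatin 1 to 3 and 24.99, 23.2 and 25.3 CPM in sorafenib 1 to 3 (log2 fold change 0.74 ± 0.11, adjusted p = 0.00743). BCL2L1, the gene of BCL-XL (chr20:31664452-31723989), was at 253, 226 and 292 CPM in oxaliplatin 1 to 3 and 432, 349.6 and 375 CPM in sorafenib 1 to 3 (log2 fold change -0.58 ± 0.13, adjusted p = 0.0324). BCL2L11, the gene of BIM, was uneven in oxaliplatin, at 4.94, 10.6 and 29.6 CPM (adjusted p = 0.539), and MCL1 was at 0.19 ± 0.11 (adjusted p = 0.281). The call of BCL2L1 ended without oxaliplatin 1 or 2 or sorafenib 1, 2 or 3 (adjusted p from 0.0544 to 0.12) and in the fit of all 9 libraries (0.152), with a range of 0.00408 to 1 over its 18 alternatives. The death receptor gene TNFRSF10B and the inhibitor of apoptosis gene BIRC5 were the other 2 members higher in sorafenib.

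**Figure D5:**
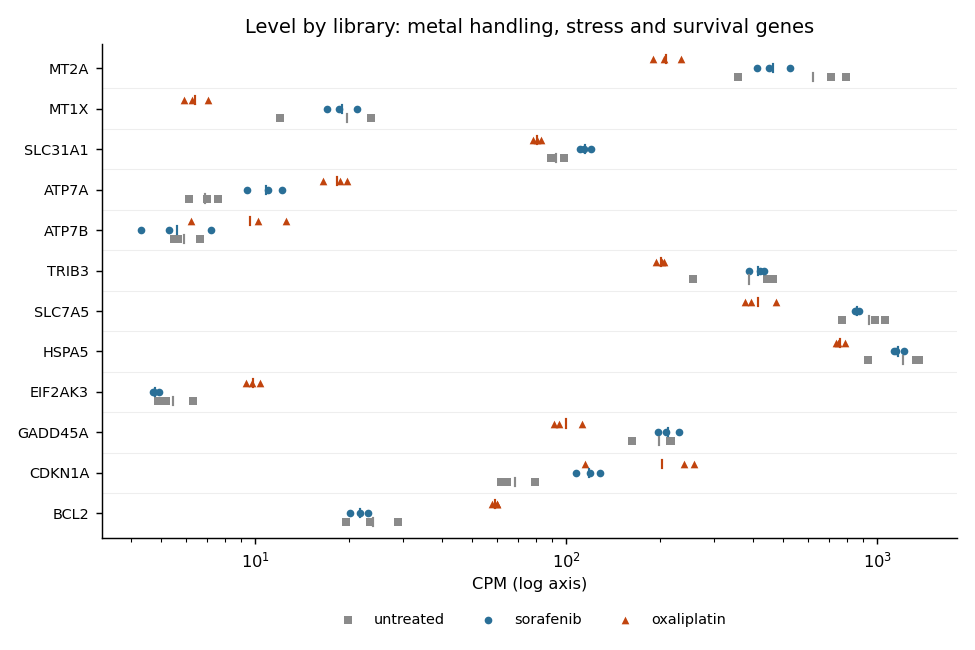
Level in CPM (log axis) of each library for genes of metal handling, stress of the endoplasmic reticulum, growth arrest and survival. Triangles are oxaliplatin, circles sorafenib and squares untreated libraries, and short vertical bars are group means. BCL2 shows 3 oxaliplatin libraries near 60 CPM beside sorafenib libraries near 20 CPM, and CDKN1A shows oxaliplatin 3 beside the sorafenib libraries.

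Stress of the endoplasmic reticulum is sensed by PERK, IRE1 and ATF6, and PERK acts through the factor ATF4. Of 32 tested ATF4 targets 5 were higher in sorafenib and 0 in oxaliplatin (15.6% called against 9.98% of all genes). The median of -0.21 ran from -0.3 to -0.14 under the alternatives. The number higher in sorafenib was 2 without oxaliplatin 1 or 2 and 3 without sorafenib 1, 2 or 3. Without sorafenib 1, 1 member was called higher in oxaliplatin. TRIB3, a pseudokinase induced by ATF4 (ENSG00000101255, chr20:362835-397559), was at 195, 204 and 206 CPM in oxaliplatin 1 to 3 and 433, 388 and 421 CPM in sorafenib 1 to 3 (log2 fold change -1.04 ± 0.10, adjusted p = 0.00109). SLC7A5, the large neutral amino acid transporter (ENSG00000103257, chr16:87830023-87869507), was at 375, 392 and 473 CPM in oxaliplatin 1 to 3 and 878, 852 and 849 CPM in sorafenib 1 to 3 (log2 fold change -1.06 ± 0.12, adjusted p = 0.00221). For both genes the oxaliplatin libraries were lowest of the 3 groups, and the untreated ones held 257, 463 and 443 CPM and 772, 983 and 1062 CPM. PPP1R15A, the phosphatase subunit that reverses the PERK signal (chr19:48872421-48876058), was at 74.3, 65.8 and 112 CPM in oxaliplatin 1 to 3 and 209.6, 173 and 163 CPM in sorafenib 1 to 3 (log2 fold change -1.11 ± 0.21, adjusted p = 0.0184). ATF4 itself was at 620.0, 641 and 738 CPM in oxaliplatin 1 to 3 and 919, 765 and 763 CPM in sorafenib 1 to 3 and was not called (-0.29 ± 0.12, adjusted p = 0.163), and DDIT3, the CHOP gene, was at -0.31 ± 0.23 (adjusted p = 0.422) with overlapping groups. The other 2 called were PSAT1, of serine synthesis, and the aminoacyl-tRNA synthetase gene WARS1. The call of PPP1R15A ended without oxaliplatin 1 or 2 or sorafenib 1 or 2 (adjusted p from 0.0522 to 0.0764), with a range of 3.5e-05 to 0.171 over its 18 alternatives. ATF4 was called, as lower in oxaliplatin, without oxaliplatin 3 and sorafenib 1 together (adjusted p = 0.0447), with a range of 0.0447 to 1 over its 18 alternatives.

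Among chaperones and sensors of the endoplasmic reticulum the median was -0.12, and 17.1% were called against 9.98% of all genes. Of 35 tested, 3 were higher in oxaliplatin and 3 in sorafenib. The first number was 1 without oxaliplatin 2 or sorafenib 3, and the second 0 without oxaliplatin 1 and 1 without oxaliplatin 2 or sorafenib 2 or 3. EIF2AK3, the gene of PERK (ENSG00000172071, chr2:88556741-88627464), was at 9.78, 9.38 and 10.4 CPM in oxaliplatin 1 to 3 and 4.73, 4.69 and 4.90 CPM in sorafenib 1 to 3 (log2 fold change 1.04 ± 0.15, adjusted p = 0.0067), so this sensor was higher in oxaliplatin while the 5 ATF4 targets called were higher in sorafenib. HSPA5, the chaperone BiP (chr9:125234853-125241343), was at 749, 791 and 737 CPM in oxaliplatin 1 to 3 and 1148, 1131 and 1224 CPM in sorafenib 1 to 3 (log2 fold change -0.62 ± 0.10, adjusted p = 0.00831). CALR, the calcium-binding chaperone calreticulin (chr19:12938578-12944489), was at 388, 481 and 479 CPM in oxaliplatin 1 to 3 and 309, 291 and 259.6 CPM in sorafenib 1 to 3 (log2 fold change 0.65 ± 0.13, adjusted p = 0.0188), opposite to HSPA5. ERN1, the gene of IRE1, was at -0.14 ± 0.17 (adjusted p = 0.634). The disulfide isomerase genes PDIA3 and P4HB were the other 2 higher in sorafenib, and the oxidase gene ERO1B the third higher in oxaliplatin. The call of HSPA5 ended without oxaliplatin 1 (adjusted p = 0.0504), with a range of 2.31e-06 to 1 over its 18 alternatives. That of CALR ended without oxaliplatin 2 or sorafenib 2 or 3 (adjusted p from 0.063 to 0.0784), with a range of 0.00093 to 1 over its 18 alternatives.

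Cytosolic heat shock genes held 5 calls higher in oxaliplatin and 0 in sorafenib of 27 tested (18.5% called against 9.98% of all genes). The median of 0.04 turned negative under 2 alternatives (-0.04 and -0.04, the overlapping genes or sorafenib 2 left out). The number called was 1 without oxaliplatin 1 or 2 or sorafenib 3 and 2 without sorafenib 2. HSPB8, a small heat shock protein (chr12:119178931-119221131), was at 56.4, 61.5 and 56.5 CPM in oxaliplatin 1 to 3 and 38.6, 31.2 and 32.5 CPM in sorafenib 1 to 3 (log2 fold change 0.77 ± 0.12, adjusted p = 0.00953). HSP90AA1, the stress-inducible HSP90 (chr14:102080742-102139699), was at 954, 1045 and 876 CPM in oxaliplatin 1 to 3 and 656, 608 and 648 CPM in sorafenib 1 to 3 (log2 fold change 0.59 ± 0.11, adjusted p = 0.0149). CRYAB, the small heat shock protein alpha B-crystallin (chr11:111908564-111923722), was at 123, 109 and 81.2 CPM in oxaliplatin 1 to 3 and 55.2, 28.6 and 45.7 CPM in sorafenib 1 to 3 (log2 fold change 1.27 ± 0.26, adjusted p = 0.026). For all 3 genes the untreated libraries were nearer to oxaliplatin, with CRYAB at 121, 95.5 and 92.9 CPM. HSPA1A, which shares reads with its copy HSPA1B, was uneven in both groups, at 24.0, 0.444 and 20.1 CPM in oxaliplatin 1 to 3 and 0.771, 9.61 and 1.42 CPM in sorafenib 1 to 3 (adjusted p = 0.436). DNAJA1 and HSPA8 were the other 2 called. The call of HSP90AA1 ended without oxaliplatin 1 or 2 or sorafenib 2 or 3 (adjusted p from 0.0572 to 0.0653), with a range of 0.000319 to 1 over its 18 alternatives. That of CRYAB ended without oxaliplatin 1 or 2 or sorafenib 3 (adjusted p from 0.0801 to 0.0888), with a range of 6.14e-05 to 0.181 over its 18 alternatives.

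Of 66 tested nuclear genes of the respiratory chain, 63 fold changes were below 0 with a median of -0.33, against 0.009 over all genes, and 5 were called higher in sorafenib and 0 in oxaliplatin, a share of 7.58% that is under the 9.98% of all genes. The number of calls was 0 without oxaliplatin 2, 1 without oxaliplatin 1 or sorafenib 3, 2 without sorafenib 2, 3 without sorafenib 1 and 14 without oxaliplatin 3, and 20 with oxaliplatin 3 and sorafenib 1 left out together. The median ran from -0.42 to -0.20, and was -0.26 after the GC and length correction. ATP5F1B, the catalytic beta subunit of the ATP synthase (chr12:56638175-56645984), was at 534, 565 and 559 CPM in oxaliplatin 1 to 3 and 773, 775 and 713 CPM in sorafenib 1 to 3 (log2 fold change -0.45 ± 0.10, adjusted p = 0.0261). The others called were ATP5MC2 of its membrane ring and the complex I subunits NDUFA7, NDUFA9 and NDUFS1. Of 13 mitochondrially encoded genes 2 were higher in oxaliplatin and 0 in sorafenib (15.4% called against 9.98% of all genes). These were MT-ND6 and MT-ND5, and the median of the list was 0.11. The count was 1 without oxaliplatin 1 or 2 or sorafenib 1, 2 or 3, and 1 in the fit of all 9 libraries. MT-ND6, a complex I subunit encoded on the light strand, was at 1154, 1077 and 897 CPM in oxaliplatin 1 to 3 and 621, 492 and 586 CPM in sorafenib 1 to 3 (log2 fold change 0.88 ± 0.14, adjusted p = 0.00898). MT-CO1 and MT-ND1 were at 0.11 ± 0.14 and -0.04 ± 0.12 (adjusted p = 0.638 and 0.853). The call of ATP5F1B ended without oxaliplatin 1 or 2 or sorafenib 2 or 3 (adjusted p from 0.0717 to 0.125), with a range of 0.00149 to 1 over its 18 alternatives.

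Of 78 cytosolic ribosomal protein genes 68 had a fold change below 0, with a median of -0.24, and 2 were called, both higher in sorafenib (2.56% against 9.98% of all genes). These were RPL27 and RPL19. RPL19 was at 1301, 1279 and 1621 CPM in oxaliplatin 1 to 3 and 2482, 2014 and 1910.0 CPM in sorafenib 1 to 3 (log2 fold change -0.61 ± 0.14, adjusted p = 0.038), highest in sorafenib 1, the library with the highest share of ribosomal protein counts. The number higher in sorafenib was 0 without oxaliplatin 1 or 2 or sorafenib 1, 2 or 3 and 12 without oxaliplatin 3, and it was 17 with oxaliplatin 3 and sorafenib 1 left out together, when 5 were higher in oxaliplatin. Without oxaliplatin 3 alone, 2 were higher in oxaliplatin. The median was -0.17 after the GC and length correction. With 1 library left out it ran from -0.325 without sorafenib 2 to -0.109 without sorafenib 1. Many processed copies of these genes exist in the genome, so single values are uncertain. The call of RPL19 ended without oxaliplatin 1 or 2 or sorafenib 1, 2 or 3 (adjusted p from 0.0685 to 0.138) and after the GC and length correction (0.0504), with a range of 0.00521 to 1 over its 18 alternatives.

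Of 31 tested glycolytic and hypoxia-responsive genes 7 were higher in sorafenib and 2 in oxaliplatin (29% called against 9.98% of all genes). The median of -0.26 was negative under all 18 alternatives. The numbers were 4 without oxaliplatin 1 or 2 or sorafenib 3 for sorafenib, and 1 without sorafenib 2 or 3 for oxaliplatin. HK2, a hexokinase that phosphorylates glucose (chr2:74834127-74893359), was at 22.8, 22.0 and 24.0 CPM in oxaliplatin 1 to 3 and 41.7, 45.8 and 48.5 CPM in sorafenib 1 to 3 (log2 fold change -0.98 ± 0.12, adjusted p = 0.00276). PDK1, which blocks pyruvate dehydrogenase (chr2:172555373-172608669), was at 23.9, 20.2 and 22.2 CPM in oxaliplatin 1 to 3 and 36.7, 40.9 and 38.4 CPM in sorafenib 1 to 3 (log2 fold change -0.81 ± 0.12, adjusted p = 0.00717). The untreated libraries lay with the oxaliplatin ones for both, at 20.6, 25.3 and 24.6 CPM and 21.8, 20.8 and 25.7 CPM. PFKFB3, an activator of phosphofructokinase (ENSG00000170525, chr10:6144934-6254644), went the other way, at 219, 228 and 276 CPM in oxaliplatin 1 to 3 and 98.9, 115 and 105 CPM in sorafenib 1 to 3 (log2 fold change 1.18 ± 0.13, adjusted p = 0.00186). The other called members were CA12, NDRG1, PFKP, BNIP3L and GAPDH, higher in sorafenib, and VEGFA, higher in oxaliplatin. GAPDH has many processed copies in the genome, so its value is uncertain.

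Of 30 tested genes of cholesterol and fatty acid synthesis 2 were higher in sorafenib and 0 in oxaliplatin (6.67%, under the 9.98% of all genes), SCD and SQLE. The number higher in sorafenib was 1 without oxaliplatin 1 or 2 or sorafenib 2 or 3, and 1 where no low counts were filtered, where the dispersion was not robust and with library size scaling. Without sorafenib 2, 1 member was called higher in oxaliplatin. SCD, the stearoyl-CoA desaturase (ENSG00000099194, chr10:100347233-100364826), was at 110.2, 111 and 118 CPM in oxaliplatin 1 to 3 and 198, 238 and 233 CPM in sorafenib 1 to 3 (log2 fold change -0.98 ± 0.11, adjusted p = 0.00227). In the list of NRF2 targets, glutathione and ferroptosis defence 17.9% of 28 were called, against 9.98% of all genes. In it 4 were higher in oxaliplatin and 1 in sorafenib. Those 4 were the aldo-keto reductases AKR1B10, AKR1C1, AKR1C2 and AKR1C3. The member higher in sorafenib was the ferritin gene FTH1. AKR1C3 (chr10:5035354-5107686) was at 255, 241 and 234 CPM in oxaliplatin 1 to 3 and 154, 145 and 127 CPM in sorafenib 1 to 3 (log2 fold change 0.78 ± 0.11, adjusted p = 0.00602). The genes of this subfamily are close copies, so the split of reads between AKR1C1, AKR1C2 and AKR1C3 is uncertain. Other NRF2 targets did not pass, with NQO1 at 0.07 ± 0.10, SLC7A11, the cystine carrier, at 0.21 ± 0.15 and GPX4, which reduces lipid peroxides, at -0.13 ± 0.14 (adjusted p = 0.699, 0.407 and 0.574). The counts were 1 without oxaliplatin 1 or sorafenib 2 or 3 and 2 without oxaliplatin 2 for oxaliplatin, and 0 without oxaliplatin 1 or 2 or sorafenib 1, 2 or 3 and 2 without oxaliplatin 3 for sorafenib. Of 36 lysosomal genes 2 were higher in sorafenib and 0 in oxaliplatin (5.56%), the proton pump subunits ATP6V1H and ATP6V1G1, a number that was 0 without oxaliplatin 1 or sorafenib 1, 2 or 3 and 1 without oxaliplatin 2 or 3, and 0 with scaling by library size only. The membrane protein gene LAMP1 was at -0.10 ± 0.17 (adjusted p = 0.723).

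Inositol phosphates are made from the product of phospholipase C by a chain of kinases that ends in inositol hexaphosphate, the compound in the title of the series. Of 31 tested genes of these kinases, phosphatases and lipases 3 were higher in oxaliplatin and 2 in sorafenib, with a median of 0.09. The share called was 16.1% against 9.98% of all genes. The number higher in sorafenib was 1 without oxaliplatin 1 or 3 or sorafenib 1, 2 or 3. PLCB4, a phospholipase C (ENSG00000101333, chr20:9068763-9481242), was at 305, 333 and 251 CPM in oxaliplatin 1 to 3 and 98.6, 142 and 134 CPM in sorafenib 1 to 3 (log2 fold change 1.25 ± 0.17, adjusted p = 0.00501). INPP4B, a phosphatase of inositol lipids (ENSG00000109452, chr4:142023160-142847432), was at 15.8, 17.8 and 16.4 CPM in oxaliplatin 1 to 3 and 3.47, 6.64 and 5.33 CPM in sorafenib 1 to 3 (log2 fold change 1.69 ± 0.23, adjusted p = 0.00551). Sorafenib held the lowest INPP4B of the 3 groups, with untreated libraries at 8.02, 22.0 and 21.4 CPM. ITPKA, the kinase that turns inositol trisphosphate into the tetrakisphosphate (ENSG00000137825, chr15:41493393-41503551), was at 4.42, 3.83 and 5.93 CPM in oxaliplatin 1 to 3 and 21.6, 18.9 and 16.1 CPM in sorafenib 1 to 3 (log2 fold change -2.00 ± 0.21, adjusted p = 0.00168), with the untreated libraries at 5.82, 15.1 and 12.4 CPM. The kinases that lead to and from inositol hexaphosphate differed less. IPMK and IPPK, which make its precursor and the compound itself, were at 0.36 ± 0.17 and 0.05 ± 0.14 (adjusted p = 0.202 and 0.831), with overlapping groups. IP6K1, which phosphorylates inositol hexaphosphate further (chr3:49724294-49786542), was at 60.5, 59.2 and 61.3 CPM in oxaliplatin 1 to 3 and 38.5, 35.6 and 41.8 CPM in sorafenib 1 to 3 (log2 fold change 0.64 ± 0.11, adjusted p = 0.0114), and MINPP1, which removes its phosphates, was at 0.28 ± 0.13 (adjusted p = 0.211). INPP5A, a phosphatase of inositol trisphosphate, was the other member called higher in sorafenib. The call of IP6K1 ended without oxaliplatin 1 (adjusted p = 0.0539), with a range of 0.000165 to 1 over its 18 alternatives.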

How the data were processed

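Messenger RNA from cells kept in oxaliplatin, cells kept in sorafenib and untreated cells was sequenced in 3 libraries each, and the authors deposited gene counts for each library together with gene coordinates. Per the submitters' processing notes the tools included featureCounts and DESeq2 and the build GRCh38, with no versions; the aligner, the annotation release and the strand setting of the counting are not given in the sources used here. Without that setting, reads of a gene and of an antisense partner cannot be told apart. From the deposited counts of the 6 drug libraries, genes were kept by edgeR's filterByExpr with a minimum count of 10, scaled by TMM factors and tested with robust quasi-likelihood fits in edgeR 4.0.16 (limma 3.58.1, R 4.3.3), oxaliplatin against sorafenib with no covariate, with Benjamini-Hochberg adjustment over the 15757 genes tested. Levels are CPM on these factors, and untreated libraries were put on the same scale. No sample was left out or imputed. The test was also run on simulated counts drawn with its own fitted dispersions. Such counts cannot show whether the libraries of a group are separate cultures. DESeq2 1.42.0, other scalings and filters, a correction for GC content and transcript length, and fits without each library were run as alternatives. Lengths, GC content and exon overlaps on the same strand come from GENCODE v29, and promoter windows from RefSeq (GRCh38.p14); among the genes named without remark, DDIT3 and MCL1 also overlap another gene on the same strand.

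The gene lists, the comparison and the rule for named genes were chosen with earlier results of these data known. By that rule the text names protein-coding genes that were called, had groups that did not overlap and a mean of at least 5 CPM: the 12 highest and 12 lowest fold changes, and the 6 smallest adjusted p per direction with at least a 2-fold difference. From each list it takes up to 4 called members per direction and key members set by hand. Other called members of a list are given by symbol, and PAX8 and CLDN4 with values, outside that rule and with their values seen. Some members of the lists are not reported here by name.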

Additional observations from a re-analysis of the deposited data

How the results depend on the processing

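The 1573 calls became 664 with a replicate block (403 higher in oxaliplatin, 261 in sorafenib), although same-numbered libraries did not deviate together (correlations of -0.0793, 0.0585 and -0.128), and 261 in a test against a 1.5-fold difference (170 and 91, of which 257 differed at least 2-fold). They became 2520 after the GC and length correction, with 1322 higher in sorafenib. Calls higher in sorafenib numbered 1074 in DESeq2 and 1121 without oxaliplatin 3 and sorafenib 1, a setting chosen after seeing the data. Leaving out 1 library gave 562 to 1832 calls, 341 to 929 higher in oxaliplatin, 221 to 903 higher in sorafenib and 387 to 752 with at least a 2-fold difference. Between 1322 and 1551 of the 1573 genes were also called with the other scalings, filters and dispersion, in DESeq2, in the fit of all 9 libraries and without overlapping genes. Over the 204 named genes, 3106 refitted values kept direction and side of the threshold, 500 lost the call, 41 gained one and 0 reversed. After the GC and length correction, 8 receptor tyrosine kinase and ligand genes, 10 replication genes, 9 ATF4 targets, 7 endoplasmic reticulum chaperones, 9 YAP targets, 7 cholesterol and fatty acid genes, 6 TGF-beta and BMP genes and 10 respiratory chain genes were called higher in sorafenib, and 7 p53 targets higher in oxaliplatin; DESeq2 called 16 respiratory chain genes higher in sorafenib. The causes of these changes were not tested, and a leave-one-out fit also holds fewer libraries. At 15797076 to 20936536 counts a library, 3 counts correspond to 0.141 to 0.185 CPM, so levels under about 1 CPM rest on few counts.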

Other observations

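The untreated libraries, which enter no test here, were unequal for several of the genes above. CLDN4 stood at 166, 4.14 and 2.58 CPM in untreated 1 to 3, COL1A1 at 6.12, 43.6 and 41.1 CPM, ADGRF1 at 14.4, 3.47 and 3.12 CPM and PLLP at 5.94, 17.8 and 19.6 CPM. In each case untreated 1 stood apart from untreated 2 and 3. By gene type, 11.2% of 12275 protein-coding genes tested were called, 6.31% of 1886 long noncoding RNA genes and 4.15% of 916 processed pseudogenes. Of the processed pseudogenes, 30 were called higher in sorafenib and 8 higher in oxaliplatin, and their reads may come from the parent genes.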
